A study of Mus musculus with 42 samples.

Results

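The genes described here are 10 components of the unfolded protein response and of the protein folding machinery of the endoplasmic reticulum (ER): Hspa5, Hsp90b1, Calr, Pdia4, Pdia6, Dnajb9, Ddit3, Atf4, Xbp1 and Herpud1. They were chosen by name, as the rows of the deposited gene table that carry these symbols, and they are 10 of the 21674 genes read from it. Each had a single row, and all 10 passed the low-count filter in every one of the 15 comparisons tested. The lowest count of any of them in any library was 11 (Ddit3, in an untreated low-flow pool).

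The ER folds secreted and membrane proteins with the help of chaperones and of enzymes that form disulfide bonds. When unfolded proteins build up there, sensors in its membrane start the unfolded protein response: IRE1 (encoded by Ern1) splices the Xbp1 message, PERK (Eif2ak3) slows translation and favours that of Atf4, and ATF6 is cut to release a transcription factor. XBP1 and ATF6 are known to induce chaperones, while ATF4 induces amino acid and redox genes and Ddit3, which encodes CHOP. Endothelial cells, which secrete matrix and clotting proteins, are known to turn on parts of this response under disturbed flow and inflammatory stress.

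Partial carotid ligation lowered flow in the mouse carotid artery on one side, and the contralateral artery, under high flow, served as a control. Each intima library held RNA flushed with Trizol from 3 to 5 arteries, pooled, and made with a low-input kit. The 48 hr groups were male wild-type C57BL/6J mice of 6 to 7 weeks. Without further treatment there were 3 pools each from low-flow, contralateral high-flow and sham-operated carotids, with reads of 100 bp. With reads of 150 bp there were 2 pools each from low-flow arteries of mice given control IgG, the platelet-depleting antibody anti-GPIba, the granulocyte-depleting antibody anti-Gr1, PBS liposomes or macrophage-depleting clodronate liposomes, and 2 pools each from high-flow arteries of mice given IgG or PBS liposomes. The 7 d groups were mice of 2 to 7 months: Rbfox2 EC-KO mice carried Rbfox2 lox/lox with Cdh5(PAC)-CreERT2 and the reporter Rosa26-mTmG, so that Rbfox2 was removed by an endothelial, inducible Cre, and their littermate controls carried Rbfox2 lox/lox and Rosa26-mTmG and no Cre. There were 3 low-flow pools and 2 high-flow pools for each 7 d genotype. The cultures, 1 library each, were an aortic endothelial TetOn-SV40 line (a single line, taken from Cdh5(PAC)-CreERT2; mTmG cells sorted on eGFP), left untreated or given for 48 hr 10% plasma, platelets with macrophages, or all of these, and primary sorted aortic endothelial cells from Rbfox2 control and Rbfox2 EC-KO mice, and cells sorted as eGFP+ that carried Cdh5(PAC)-CreERT2 and mT/mG.

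Total counts were 4064477 to 6794904 in the untreated libraries, 12286104 to 19035957 in the depletion libraries, 10318685 to 18633538 at 7 d and 4989843 to 16394043 in the cultures. Levels are given as FPKM, counts per unit of gene length and of library size, with library sizes scaled by TMM within each set of libraries tested together, so levels are compared within a set. Among the untreated libraries, low-flow pools a and b stood apart. Their TMM factors were 0.569 and 0.549, against 1.115 to 1.275 in the other 7 pools, and Actb alone took 10.6% and 10.1% of their counts, against 3.74% in low-flow pool c and 0.516% to 1.5% in high-flow and sham pools. The results on the untreated low-flow group are therefore also given without pools a and b. In the depletion set, the low-flow and high-flow libraries came from read files with different run prefixes, so flow and sequencing run cannot be told apart there, and at 7 d the low-flow libraries numbered 1 carried the prefix of the depletion low-flow libraries. All 11 endothelial markers were detected in every group of arteries and cultures. Macrophage markers were also present in the low-flow arteries: the summed level of the 12 found in the table was 1890 to 6340 FPKM in untreated low-flow pools, 56.9 to 137 in high-flow pools and 161 to 551 in sham pools. The summed level of 7 smooth muscle markers was 2410 to 3260 in low-flow pools and 267 to 320 in high-flow pools. Of the 6 tested, 3 were called higher, with a median log2 fold change of 0.29, so the sum rose more than the typical marker. The 6 markers of dividing cells summed to 332 to 603 and 9.06 to 17.4. Neutrophil markers summed to 414 to 2080 and 12.3 to 30.1, with 5 of 5 tested called higher, and fat cell markers to 10.6 to 16.1 and 123 to 1390, with 5 of 5 tested called lower. These libraries are bulk RNA, in which fewer cells of a type and less RNA per cell cannot be told apart, and the part of other cell types in the results below was not tested.

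The promoters of these genes carry sites that have long been linked to the response, and these sequences are shown because they group the members in a way that the expression values did not define. The windows searched were the 300 bases from 250 before to 50 after each RefSeq start (RefSeq promoter table, GRCm38.p6), all 10 members were found in it, and each window matched NCBIM37 (mm9) exactly once, which gave the coordinates printed here. Both strands were searched for the ER stress response element ERSE (CCAAT and CCACG with 9 bases of any kind between them), for ERSE-II (ATTGG and CCACG with 1 base of any kind between them), for the unfolded protein response element UPRE (TGACGTGG) and for the C/EBP-ATF response element CARE (TTGCATCA). ERSE, ERSE-II and UPRE share the letters CCACG, UPRE on the opposite strand. ERSE was present in 4 of the 10 members and in 0.119% of the 32851 promoters of the table. Capitals mark the fixed letters of the motif, and each site is written on the strand where the motif reads forward:
Hspa5 ERSE: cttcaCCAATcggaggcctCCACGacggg
Hsp90b1 ERSE, farther site: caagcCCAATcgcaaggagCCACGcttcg
Hsp90b1 ERSE, nearer site: actcaCCAATcgtgcctcaCCACGcactc
Calr ERSE: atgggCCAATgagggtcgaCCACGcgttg
Pdia6 ERSE: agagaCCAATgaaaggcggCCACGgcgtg
Pdia4, 1 mismatch to ERSE: gaccaCCAATcacgggctgCCACtcggtt
Ddit3, 1 mismatch to ERSE: gcctaCCAATcagaaagcggCACGctggc
Herpud1 ERSE-II: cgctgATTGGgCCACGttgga
Herpud1 CARE: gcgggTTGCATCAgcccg

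The Hspa5 site lay at chr2:34627545-34627563 on the plus strand, 65 to 47 bases before the RefSeq start and inside an annotated exon of a model that starts farther upstream. The sites of Hsp90b1 lay at chr10:86168383-86168401 on the minus strand and at chr10:86168278-86168296 on the plus strand, opposite to the gene, 212 to 194 and 107 to 89 bases before its start. The Calr site lay at chr8:87370974-87370992 on the plus strand, opposite to the gene, 162 to 144 bases before the start, and that of Pdia6 at chr12:17273297-17273315 on the plus strand, 98 to 80 bases before it. These Hsp90b1, Calr and Pdia6 sites overlapped no annotated exon. With at most 1 mismatch in the fixed letters, ERSE was found in 7 members and in 1.5% of all promoters, the added members being Pdia4 (chr6:47763601-47763619), Ddit3 (chr10:126727758-126727776) and Herpud1. ERSE-II was present in Herpud1 (chr8:96910277-96910287) and in 0.0365% of promoters, CARE in Herpud1 (chr8:96910217-96910224) and in 0.895%, and UPRE in no member and in 0.676%. The closest stretch to ERSE had 2 mismatches in Dnajb9 and in Atf4 and 3 in Xbp1. A match describes letters in this window and not binding.

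In the high-flow arteries without treatment the genes spanned about an order of magnitude per unit length. Hspa5, which encodes the main ER chaperone BiP, was highest at 354 ± 14.6 FPKM (SD, n = 3), followed by Pdia6 at 302 ± 30.6, Hsp90b1 at 230 ± 5.73, Calr at 218 ± 35.8, Herpud1 at 176 ± 16.4 and Pdia4 at 111 ± 8.56. The 4 remaining genes were Xbp1 at 45.7 ± 21.0, Atf4 at 42.6 ± 4.92, Ddit3 at 32.8 ± 3.44 and Dnajb9 at 31.2 ± 2.68. Neighbours in this order whose libraries overlapped were Hsp90b1 and Calr, Xbp1 and Atf4, and Ddit3 and Dnajb9. In the low-flow arteries Hspa5 was again highest, at 1850 ± 886, and Ddit3 was lowest, at 10.5 ± 4.22.

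The first question was whether these genes differed between low-flow and high-flow intima at 48 hr. The chaperones and disulfide isomerases, Atf4 and Xbp1 were higher under low flow, while the co-chaperone gene Dnajb9, the CHOP gene Ddit3 and the degradation gene Herpud1 were lower. By edgeR's quasi-likelihood test with Benjamini-Hochberg adjustment over all genes tested, 10 of 10 members passed an adjusted p of 0.05, 7 higher and 3 lower, where 46.2% of the 11236 genes tested passed, 23.6% higher and 22.6% lower. Pools of a group are given in one order throughout. The 3 low-flow and 3 high-flow libraries did not overlap for any of the 10, and they did not overlap for 58.0% of all genes. The median log2 fold change of the members was 1.1, and that of all genes was -0.07.

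Hspa5 (chr2:34627490-34632051, plus strand, NCBIM37 as for the genes that follow) measured 2070, 2600 and 873 FPKM in low-flow pools a, b and c, and 343, 370 and 348 in the high-flow pools. Every low-flow pool was above every high-flow pool, and pool c was the lowest of its group. The log2 fold change was 2.38 (SE 0.49, edgeR adjusted p = 0.00268), or 5.20-fold. Hsp90b1, which encodes the ER member of the HSP90 family, GRP94 (chr10:86152954-86168254, minus strand), measured 781, 594 and 376 FPKM under low flow and 237, 226 and 229 under high flow. The low-flow pools were again all higher, by 1.33 on the log2 scale (SE 0.35, edgeR adjusted p = 0.0103). Calr (chr8:87365749-87370833, minus strand) encodes calreticulin, a calcium-binding chaperone of glycoproteins. It measured 1020, 1030 and 419 FPKM under low flow and 259, 202 and 192 under high flow, a log2 fold change of 1.91 (SE 0.40, edgeR adjusted p = 0.00281).

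Pdia6 (chr12:17273351-17291576, plus strand) and Pdia4 (chr6:47746141-47763511, minus strand) encode protein disulfide isomerases, which form and rearrange disulfide bonds in the ER. Pdia6 measured 1490, 1520 and 582 FPKM in the low-flow pools and 337, 288 and 281 in the high-flow pools, a log2 fold change of 1.98 (SE 0.43, edgeR adjusted p = 0.00375). Pdia4 measured 310, 271 and 171 FPKM, against 110, 102 and 119, a log2 fold change of 1.17 (SE 0.28, edgeR adjusted p = 0.00644). For all 5 folding genes, pools a and b lay above pool c, and pool c lay above the whole high-flow group.

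Among the transcription factors, Atf4 (chr15:80085614-80087970, plus strand) measured 73.7, 91.9 and 89.1 FPKM under low flow and 47.9, 41.7 and 38.2 under high flow, a log2 fold change of 0.99 (SE 0.19, edgeR adjusted p = 0.00167). Xbp1 (chr11:5420662-5425896, plus strand) measured 82.7, 108 and 90.3 FPKM under low flow and 23.0, 64.3 and 49.8 under high flow, where the pools were far apart, a log2 fold change of 1.02 (SE 0.32, edgeR adjusted p = 0.0228). These are gene levels, which do not separate the spliced from the unspliced Xbp1 message. Pool c lay between the other low-flow pools for Xbp1 and Atf4, unlike for the chaperones.

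Ddit3 (chr10:126727830-126733344, plus strand) went the other way from Atf4, the factor known to induce it. It measured 10.7, 6.20 and 14.6 FPKM under low flow and 36.5, 32.3 and 29.6 under high flow. All low-flow pools were lower, 2.97-fold by the fit (log2 fold change -1.57, SE 0.27, edgeR adjusted p = 0.000899). Dnajb9 (chr12:45306884-45311055, minus strand) encodes ERdj4, a co-chaperone of BiP that XBP1 is known to induce, and it measured 13.7, 15.5 and 17.9 FPKM against 34.2, 29.3 and 30.0, a log2 fold change of -0.99 (SE 0.18, edgeR adjusted p = 0.00113). Herpud1 (chr8:96910338-96919277, plus strand), which acts in ER-associated degradation of misfolded proteins, measured 124, 112 and 115 FPKM against 191, 159 and 179, a log2 fold change of -0.60 (SE 0.21, edgeR adjusted p = 0.0370). Both genes lay lower in every low-flow pool. When 1 library was left out at a time, 7 of the 10 members passed in all 6 fits. Herpud1 passed in 1 of them, that without low-flow pool c, with adjusted p of 0.0724 to 0.133 in the others by edgeR. Hsp90b1 did not pass without the second or the third high-flow pool (edgeR adjusted p = 0.0593 and 0.0530), nor Xbp1 without low-flow pool b (adjusted p = 0.0780).

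**Figure D1:**
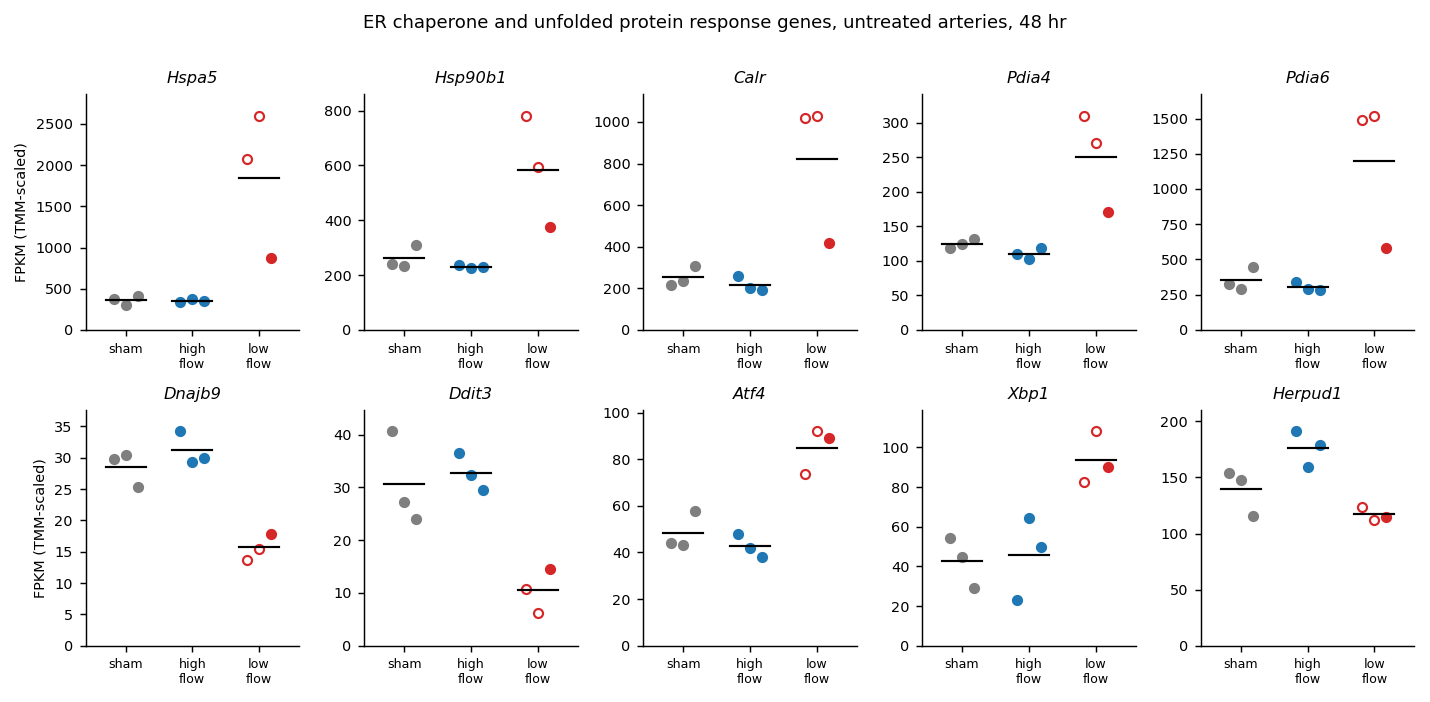
Level of each gene (FPKM, TMM-scaled, linear axis from 0) in sham, contralateral high-flow and low-flow carotid intima at 48 hr, with 1 point per pool, a line at the mean of 3 pools and hollow points for low-flow pools a and b. Hspa5, Hsp90b1, Calr, Pdia4, Pdia6, Atf4 and Xbp1 lay higher in every low-flow pool than in every high-flow pool, and Dnajb9, Ddit3 and Herpud1 lay lower.

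Without low-flow pools a and b, with the 3 untreated groups fitted together so that the spread of the others stood for the lone pool c, 6 of 10 members passed, where 20.5% of all genes did. Hspa5 (log2 fold change 1.30), Atf4 (1.06), Calr (0.94) and Pdia6 (0.94) were higher and Ddit3 (-1.17) and Dnajb9 (-0.80) lower, by edgeR. Hsp90b1 (adjusted p = 0.0557), Pdia4 (0.0606), Herpud1 (0.117) and Xbp1 (0.176) did not pass. Scaling by total counts in place of TMM moved the median of all genes from -0.07 to -0.69. Under it 6 members passed, where 36.7% of all genes did: Hspa5 (1.54), Pdia6 (1.15), Calr (1.09), Ddit3 (-2.13), Dnajb9 (-1.58) and Herpud1 (-1.23). Hsp90b1, Pdia4, Atf4 and Xbp1 then had log2 fold changes of 0.57, 0.42, 0.37 and 0.36, which did not pass but stood above that median.

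Against sham-operated arteries, which ask the same question without a ligated neighbour, 9 of 10 members passed by edgeR, 7 higher and 2 lower, where 40.3% of 11164 genes did, 20.6% higher and 19.7% lower. Hspa5 measured 377, 301 and 414 FPKM in the sham pools and was 2.31 higher under low flow on the log2 scale (SE 0.52, edgeR adjusted p = 0.00983). Ddit3 measured 40.6, 27.3 and 24.0 FPKM in them, and its log2 fold change was -1.50 (SE 0.32, edgeR adjusted p = 0.00808). Herpud1 was the exception, with 154, 148 and 116 FPKM in sham pools that overlapped the low-flow pools (log2 fold change -0.29, edgeR adjusted p = 0.276). The low-flow libraries are shared with the comparison above. This count rested on single libraries: it was 3 without the first sham pool, 4 without the second, 6 without low-flow pool a and 6 without low-flow pool b. Without both pools a and b it was 1 (Hspa5, log2 fold change 1.23, edgeR adjusted p = 0.0154), where 9.38% of all genes passed, and with total counts it was 5, where 30.1% did. With total counts the directions turned to 2 higher (Hspa5 and Pdia6) and 3 lower (Ddit3, Dnajb9 and Herpud1), and Herpud1 then passed (log2 fold change -0.97, edgeR adjusted p = 0.0457).

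High-flow and sham arteries were close to each other for these genes. By edgeR 0 of 10 members passed, as did 0.0% of 11030 genes, and 0 members had an unadjusted p under 0.05, where 868 genes did. DESeq2 also called 0 members. The largest fitted difference was that of Herpud1, 0.33 higher in high flow on the log2 scale (SE 0.18, edgeR adjusted p = 0.725), and its libraries were the only ones among the members that did not overlap, as was the case for 12.8% of all genes.

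Genes of the same pathway outside the 10 were taken from 6 lists, whose counts stand against the 46.2% of all genes that passed here, 23.6% higher and 22.6% lower. In low-flow against high-flow arteries, 11 of the 19 tested ER folding helpers passed higher and 1 lower, with a median log2 fold change of 0.91, where the median of all genes was -0.07. Manf, a secreted ER stress factor, measured 262, 346 and 113 FPKM under low flow and 59.2, 50.1 and 40.3 under high flow (log2 fold change 2.26, SE 0.38, edgeR adjusted p = 0.000768). Sdf2l1, a partner of BiP, rose from 12.3 to 24.2 FPKM in high-flow pools to 55.0 to 119 in low-flow pools (2.23, SE 0.32, edgeR adjusted p = 0.000249). The list's member that fell was Pdia5, a disulfide isomerase, at 37.4 to 42.6 FPKM against 67.5 to 105 (log2 fold change -1.09, SE 0.21, edgeR adjusted p = 0.00167).

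Of 16 tested genes of the translocon and signal peptidase, which bring new proteins into the ER, 8 passed higher and 1 lower, with a median of 0.68. The pore subunits Sec61a1 (log2 fold change 1.61, edgeR adjusted p = 0.00102) and Sec61b (1.37, adjusted p = 0.0053) rose, and Sec62 fell (-0.62, adjusted p = 0.0175). Of 14 tested genes of ER-associated degradation, 2 passed higher and 1 lower, with a median of 0.24: Vcp, the segregase (1.04, edgeR adjusted p = 0.00363), Edem2 (0.87, adjusted p = 0.00555) and Herpud2 (-0.88, adjusted p = 0.0151). The calls of Sec62 and Herpud2 were each lost in 1 or more of the 6 fits without a single library: Sec62 without low-flow pool b or the first or the third high-flow pool, and Herpud2 without low-flow pool a or the second high-flow pool (edgeR adjusted p of 0.0507 to 0.0649).

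Among the sensors and related kinases, 1 of 8 tested passed higher and 1 lower, with a median of -0.23. Eif2ak3, the PERK gene, measured 0.831, 0.565 and 1.08 FPKM under low flow and 1.93, 1.65 and 2.26 under high flow, so that all low-flow pools were lower (log2 fold change -1.16, SE 0.31, edgeR adjusted p = 0.0111). Atf6b, a relative of Atf6, was higher (0.73, edgeR adjusted p = 0.0340), a call lost without low-flow pool b or c or the second or the third high-flow pool (adjusted p up to 0.118). Atf6 itself measured 3.19 to 3.87 FPKM against 2.13 to 3.02 and did not pass (log2 fold change 0.42, edgeR adjusted p = 0.111; -0.19 with total counts). Ern1 did not pass the low-count filter, at 0.107 to 0.368 FPKM in low-flow and 0.220 to 0.866 in high-flow pools.

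Of 15 tested ATF4 and CHOP targets, 7 passed higher and 2 lower, with a median of 0.77. The cystine transporter gene Slc7a11 (log2 fold change 3.61, edgeR adjusted p = 4.41e-05) and the asparagine synthetase gene Asns (3.37, adjusted p = 0.000168) were higher. Slc7a11 was low in both groups, at 0.964 to 1.77 FPKM against 0.0695 to 0.152. Asns measured 35.5 to 41.6 FPKM under low flow and 0.826 to 6.88 under high flow. Its log2 fold change was 2.99 to 4.16 with 1 library left out at a time. Ddit4 (-1.99, edgeR adjusted p = 0.0101) and Trib3 (-0.77, adjusted p = 0.0313) were lower. With 1 library left out at a time Ddit4 lay at -2.71 to -1.61. Which factor acts on which gene of this list was not tested. The call of Trib3 was lost without low-flow pool a or b or the first high-flow pool (edgeR adjusted p up to 0.130). A comparison list of 10 tested heat shock genes outside the ER, most of them cytosolic, held 7 higher and 2 lower, with a median of 1.44, larger than that of any ER list. Among them were Hspa8 (3.28, edgeR adjusted p = 0.00615), Hspd1, the mitochondrial chaperonin (2.12, adjusted p = 0.000296), and Hspb1 (-1.20, adjusted p = 0.0159). Hspa8 lay at 2910 to 14700 FPKM in low-flow and 997 to 1180 in high-flow pools, and its call was lost without the first or second high-flow pool (edgeR adjusted p = 0.0580 and 0.0511). That of Hspb1 was lost without low-flow pool a or b or the second high-flow pool (adjusted p up to 0.0820).

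Without low-flow pools a and b, 4 of 19 ER folding helpers were higher and 1 lower by edgeR, with a median of 0.54, where the median of all genes was -0.05. Sdf2l1 (log2 fold change 1.52, edgeR adjusted p = 0.0302) and Pdia5 (-1.0, adjusted p = 0.0426) passed, and Manf did not (1.17, adjusted p = 0.0552). Of the 16 translocon genes 1 was higher (median 0.22), Sec61a1 (1.17, edgeR adjusted p = 0.00875), and Sec61b no longer passed (0.36, adjusted p = 0.550). Of 14 degradation genes 1 was higher (median 0.08), Vcp (0.86, edgeR adjusted p = 0.0204), and of 9 sensors and related kinases 0 passed (median -0.30), Eif2ak3 being at -0.85 (adjusted p = 0.109). Of 16 ATF4 and CHOP targets 6 were higher and 0 lower (median 0.80), among them Slc7a11 (3.08, edgeR adjusted p = 0.00513) and Asns (3.28, adjusted p = 0.0402). Of 10 heat shock genes 5 were higher and 0 lower (median 0.96), with Hspd1 at 1.55 (edgeR adjusted p = 0.00417) and Hspa8 at 1.41 (adjusted p = 0.00339). None of Edem2, Herpud2, Atf6b, Ddit4, Trib3, Sec62 and Hspb1 passed in this fit.

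Over the 14 artery groups, likeness to Hspa5 was taken as the Pearson r of mean log2(FPKM + 1), over 8379 genes. Without regard to the 3 sets the closest genes were Stt3a, a subunit of the ER oligosaccharyltransferase (r = 0.96), Eno1 (0.96), Maged1 (0.96), Nap1l4 (0.96) and Tuba1b (0.95), but levels of different sets enter these values. With the mean of each set removed first, the closest were Pdia6 (0.99), Stt3a (0.99), Surf4 (0.99), Hnrnpf (0.99) and Hnrnpk (0.98). Among the other members Pdia4 ranked 50 (r = 0.96), Hsp90b1 340 (0.92), Calr 405 (0.91), Xbp1 1445 (0.81) and Atf4 1916 (0.74), while Herpud1 (-0.78), Dnajb9 (-0.81) and Ddit3 (-0.83) ran opposite. For Xbp1 the centring moved r from 0.28 to 0.81. The groups of a set share a sequencing design, and these values describe likeness in these libraries.

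The depletion experiment asked whether platelets, granulocytes or macrophages change the response to low flow. In the arteries of mice given control IgG, 6 of 10 members passed between low and high flow by edgeR, 5 higher and 1 lower, where 40.5% of 13401 genes passed, 22.8% higher and 17.7% lower. Hspa5 measured 691 and 1180 FPKM in the low-flow pools and 294 and 318 in the high-flow pools, a log2 fold change of 1.62 (SE 0.41, edgeR adjusted p = 0.0102). Xbp1 measured 334 and 342 against 163 and 159 (1.07, SE 0.22, edgeR adjusted p = 0.00411), with closely matching pools. Pdia6 (1.44), Atf4 (1.28) and Pdia4 (1.02) were the other genes that rose. With 1 library left out at a time, Atf4 passed in 0 of 4 fits, Pdia4 in 1 (log2 fold change 0.65 to 1.34) and Hspa5 and Pdia6 in 2 each, while Xbp1 passed in 4. Dnajb9 fell, from 24.3 and 25.6 FPKM to 11.2 and 9.81 (log2 fold change -1.25, SE 0.31, edgeR adjusted p = 0.0100). Hsp90b1 (0.58, edgeR adjusted p = 0.142), Calr (0.40, adjusted p = 0.266), Ddit3 (-0.43, adjusted p = 0.443) and Herpud1 (-0.09, adjusted p = 0.775) did not pass. The count was 1 without the second IgG low-flow pool and 3 without either IgG high-flow pool. Beside these values, the summed endothelial markers were 1980 to 2110 FPKM in the IgG low-flow pools and 5030 to 5320 in the high-flow pools, with 5 of 11 called lower and 2 higher. The macrophage markers were at 2170 to 2260 against 72.2 to 281 and the dividing cell markers at 221 to 398 against 6.2 to 14.8. Smooth muscle markers were at 2570 to 2810 against 265 to 430, with 2 of 7 called higher and a median log2 fold change of 0.33. Neutrophil markers were at 111 to 399 against 3.97 to 60.4, with 4 of 8 called higher. The part of these cell types was not tested.

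In the arteries of mice given PBS liposomes 3 members passed between low and high flow by edgeR, all higher, where 35.0% of genes did and 19.6% passed higher. Atf4 measured 247 and 148 FPKM under low flow and 40.3 and 51.4 under high flow (log2 fold change 2.11, SE 0.42, edgeR adjusted p = 0.00386). Xbp1 (0.86, edgeR adjusted p = 0.0120) and Pdia6 (1.1, adjusted p = 0.0281) also rose. Hspa5, at 1070 and 1210 against 450 and 674, did not pass (1.02, SE 0.40, edgeR adjusted p = 0.0692), although its pools did not overlap. DESeq2 called 4 members here, adding Hspa5 (adjusted p = 0.0299), and 40.6% of genes. Fitted by edgeR on only the groups compared, Hspa5 was also added (adjusted p = 0.0480), where 42.3% of genes passed. The endothelial markers were at 1990 to 2050 FPKM under low flow and 3260 to 4200 under high flow in these libraries, and the macrophage markers at 1450 to 2360 and 108 to 197. Smooth muscle markers were at 1940 to 3900 and 259 to 504, with 2 of 7 called higher and a median log2 fold change of 0.17. Neutrophil markers were at 166 to 483 and 4.24 to 14.8, with 5 of 8 called higher. The part of these cells in the result was not tested. Without the first PBS high-flow pool the count was 0, and without the second PBS low-flow pool it was 1. The difference between the IgG and PBS flow responses was tested as an interaction, in which 0 of 10 members passed by edgeR and by DESeq2, 0 had an unadjusted p under 0.05, and 0.0% of all genes passed. For Ddit3 the fitted response was -0.43 with IgG and 0.03 with PBS liposomes.

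With anti-GPIba, Hspa5, Hsp90b1, Calr and Pdia6 were lower in low-flow arteries than with IgG, calls that did not hold when any 1 library was left out. By edgeR 4 of 10 members passed, all 4 lower, where 16.5% of 13401 genes passed and 10.5% passed lower. Hspa5 measured 320 and 371 FPKM with anti-GPIba and 691 and 1180 with IgG, so both depleted pools were lower (log2 fold change -1.44, SE 0.41, edgeR adjusted p = 0.0384). Pdia6 measured 188 and 180 against 371 and 574 (-1.36, SE 0.34, edgeR adjusted p = 0.0317). In both genes the 2 depleted pools were close together and the IgG pools far apart. Hsp90b1 measured 237 and 222 against 438 and 586 (-1.16, SE 0.30, edgeR adjusted p = 0.0334). Calr measured 164 and 151 against 319 and 364 (-1.12, SE 0.28, edgeR adjusted p = 0.0313). The groups did not overlap for 8 of the 10 members, as for 73.9% of all genes. The 4 genes that passed in this fit are the members with an exact ERSE in the window searched, which is a description of 10 genes. The match depended on the fit. Pdia4, without an exact ERSE, passed with DESeq2 (adjusted p = 0.0299) and with the pool numbers as a block (edgeR adjusted p = 0.0467).

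Pdia4, with 114 and 87.4 FPKM against 142 and 228, was lower in both anti-GPIba pools but did not pass (log2 fold change -0.87, SE 0.29, edgeR adjusted p = 0.0607). Atf4 measured 53.2 and 69.8 against 141 and 120 (-1.08, SE 0.41, edgeR adjusted p = 0.0826). Ddit3 measured 21.6 and 31.9 against 14.4 and 11.7, the higher values being those of the depleted pools (1.03, SE 0.43, edgeR adjusted p = 0.111). Xbp1, at 275 and 367 against 334 and 342, overlapped (-0.07, SE 0.22, edgeR adjusted p = 0.824), as did Dnajb9 (0.25, edgeR adjusted p = 0.583). DESeq2 called 6 members in this comparison, adding Pdia4 and Atf4, and 26.6% of genes. By edgeR on only the groups compared 6 members passed too, with Atf4 lower (-1.04, adjusted p = 0.0112) and Ddit3 higher (1.08, adjusted p = 0.0303) added, where 34.5% of genes passed. Leaving out any 1 of the 4 libraries left 0 members called by edgeR, with log2 fold changes of Hspa5 from -1.77 to -1.0, and the lone pool of an arm was then assumed to vary like the other groups.

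Beside this, the summed macrophage markers were 207 to 320 FPKM in the anti-GPIba pools and 2170 to 2260 in the IgG low-flow pools, with 6 of 12 tested markers called lower. The dividing cell markers were at 3.39 to 5.18 against 221 to 398, with 2 of 6 called lower. The smooth muscle markers were at 402 to 569 against 2570 to 2810, with 2 of 7 called lower. The platelet markers, the target of the antibody, were at 15.5 to 30.2 against 42.0 to 46.1, with Gp5 and Treml1 at 0. Of the 7 platelet markers tested, 1 was called lower and 1 higher. The endothelial markers were at 3440 to 3450 against 1980 to 2110. The part of these differences in the lower ER genes was not tested.

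The related lists also held genes that were lower with anti-GPIba, where the median of all genes was -0.04 and 16.5% passed, 10.5% lower. Of 19 ER folding helpers 6 were lower and 0 higher, with a median of -0.69, among them Manf at 22.8 to 25.5 FPKM against 83.7 to 114 (log2 fold change -2.03, edgeR adjusted p = 0.0210) and Sdf2l1 (-1.92, adjusted p = 0.0371). Of 16 translocon genes 9 were lower and 0 higher, with a median of -0.87, led by Sec61b (-1.82, edgeR adjusted p = 0.0173) and Sec61g (-1.61, adjusted p = 0.0185). Of 15 degradation genes 4 were lower and 1 higher (median -0.02), with Edem1 (-1.6, edgeR adjusted p = 0.0272) and Vcp (-1.08, adjusted p = 0.0321) lower and Os9 higher (0.95, adjusted p = 0.0329). Of 9 sensors and their partners 1 was higher, Mbtps1, the protease that cuts ATF6 (0.75, edgeR adjusted p = 0.0441). Of 18 ATF4 and CHOP targets 3 were lower and 2 higher (median -0.41). Cebpb (-3.28, edgeR adjusted p = 0.0115) and Atf3 (-2.16, adjusted p = 0.0334) fell, and Atf3 lay at -2.78 to -1.03 with 1 library left out at a time. Trib3, at 36.6 to 41.8 FPKM against 9.85 to 10.5 (1.95, edgeR adjusted p = 0.0268), and Slc3a2 (1.44, adjusted p = 0.0161) rose. Of 11 heat shock genes outside the ER 5 were lower and 0 higher (median -1.22), with Hspe1, the mitochondrial co-chaperonin (-2.25, edgeR adjusted p = 0.0252), and Hsp90aa1 (-1.52, adjusted p = 0.0336) the farthest. Of the 14 genes named here, Cebpb passed in 2 of the 4 fits that left out a single library, Atf3 in 1 and the others in 0, with adjusted p up to 0.281 by edgeR.

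**Figure D2:**
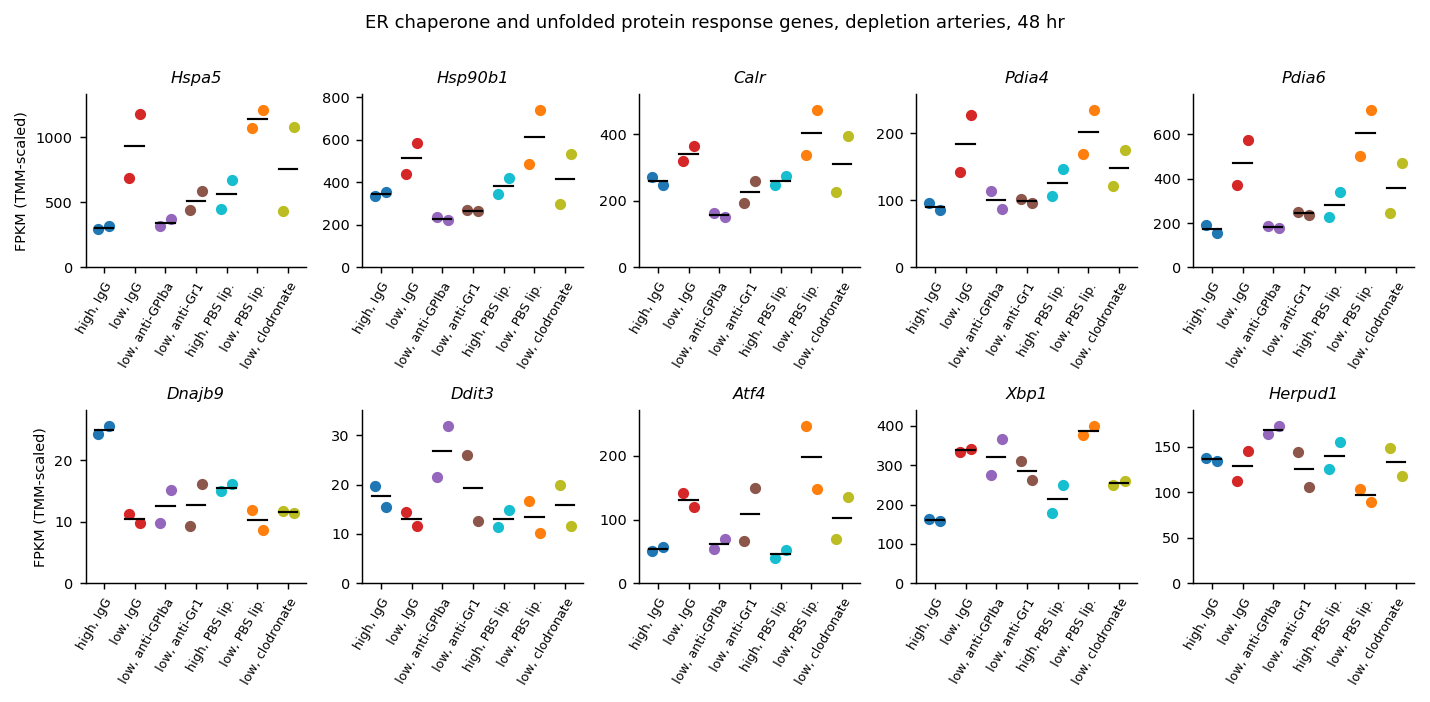
Level of each gene (FPKM, TMM-scaled, linear axis from 0) in the 7 groups of the depletion experiment at 48 hr, with 1 point per pool and a line at the mean of 2 pools. Hspa5, Hsp90b1, Calr and Pdia6 lay lower in both anti-GPIba low-flow pools than in both IgG low-flow pools, and the clodronate pools were far apart for Hspa5, at 433 and 1080.

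With anti-Gr1, Hspa5, Hsp90b1, Calr, Pdia4, Pdia6 and Xbp1 lay below IgG in both pools without passing, where 29.2% of all genes lay lower in both. Hspa5 measured 440 and 585 FPKM (log2 fold change -0.87, SE 0.40, edgeR adjusted p = 0.278), Hsp90b1 271 and 263 (-0.94, SE 0.30, adjusted p = 0.243) and Pdia4 102 and 96.9 (-0.89, SE 0.29, adjusted p = 0.243). By edgeR 0 of 10 members passed, as did 0.0% of all genes, and 3 members had an unadjusted p under 0.05, as did 2432 of all genes. DESeq2 called 0 members. The IgG libraries are shared with the anti-GPIba comparison. The direct comparison of anti-GPIba with anti-Gr1 gave 0 members passed by edgeR and by DESeq2 and 0 with an unadjusted p under 0.05, where 0.0% of genes passed, and the fitted difference of Hspa5 was -0.57 (SE 0.40, edgeR adjusted p = 0.638). The members' response was thus not shown to differ between the antibodies. The neutrophil markers were at 14.9 to 39.3 FPKM with anti-Gr1, at 6.72 to 15.7 with anti-GPIba and at 111 to 399 with IgG. With anti-Gr1 the dividing cell markers were at 15.7 to 27.4 and the macrophage markers at 1170 to 1300, against 221 to 398 and 2170 to 2260 with IgG, and their part was not tested.

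With clodronate liposomes the low-flow pools disagreed. Hspa5 measured 433 and 1080 FPKM in them, against 1070 and 1210 with PBS liposomes, and Hsp90b1 297 and 531, against 485 and 739. Both pools had the same macrophage marker sum, 242 FPKM, against 1450 to 2360 with PBS liposomes, and their dividing cell sums were 10.3 and 377, in the order of the Hspa5 values. The part of these cell types in the members' levels was not tested. By edgeR 0 of 10 members passed, where 0.119% of genes did, 3 were under 0.05 before adjustment, as were 2002 of 13401 genes, and DESeq2 called 0. Xbp1, at 249 and 260 against 376 and 400, had the smallest adjusted p (log2 fold change -0.61, SE 0.22, edgeR adjusted p = 0.267). Atf4, at 68.8 and 135 against 247 and 148, also lay lower in both pools (-0.95, SE 0.41, edgeR adjusted p = 0.313). So did Pdia6, at 244 to 471 against 502 to 709, while Herpud1 lay higher in both, at 118 to 149 against 89.4 to 104. The groups of the remaining members overlapped.

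**Figure D3:**
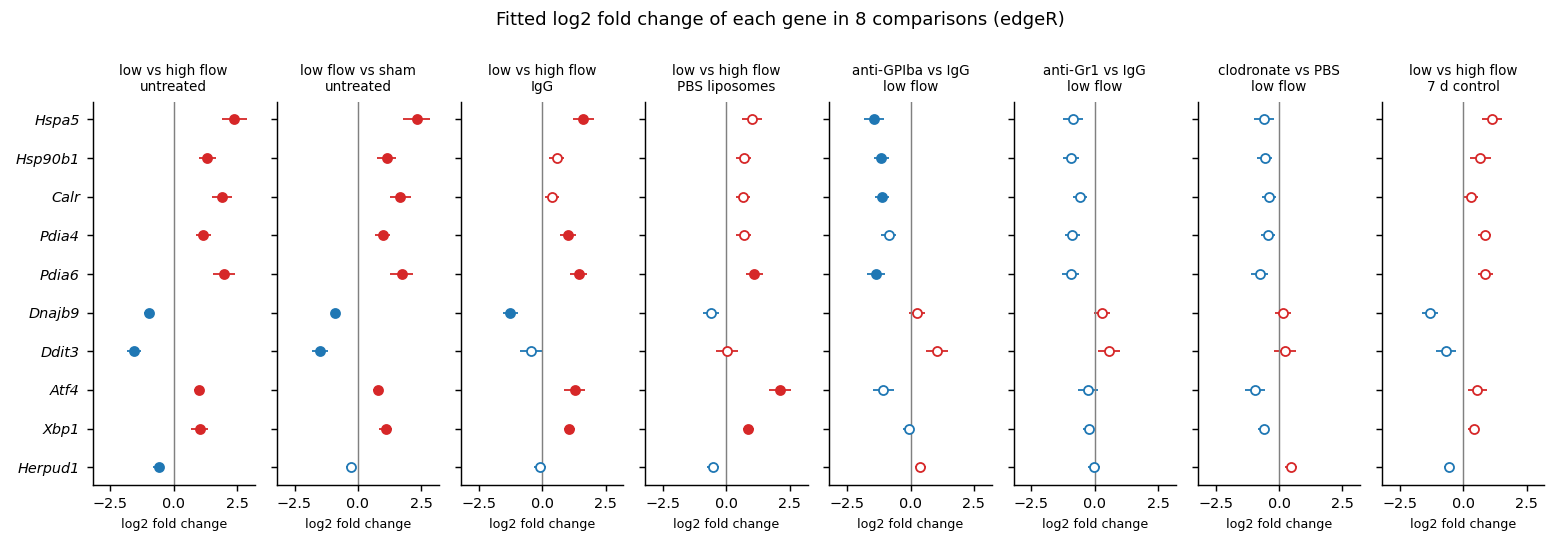
Fitted log2 fold change (x axis) of each gene in 8 comparisons, with bars of 1 SE from edgeR, filled points where the adjusted p over all genes was under 0.05, red for higher and blue for lower in the group named first. All 10 genes are filled for low against high flow in untreated arteries, 4 for anti-GPIba against IgG and 0 for anti-Gr1, clodronate and the 7 d controls.

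At 7 d the question was whether endothelial Rbfox2, a splicing factor, alters the response. Rbfox2 itself measured 3.11, 5.58 and 2.76 FPKM in the low-flow controls and 1.08, 0.174 and 0.603 in the low-flow EC-KO pools. Under high flow it measured 3.73 and 4.05 against 0.775 and 1.08. These values are in the order of the pool numbers in the column names, not of the replicate numbers in the labels. Under low flow 6 members had negative and 4 positive fitted values, and 0 passed. Hspa5 measured 529, 1080 and 1600 FPKM in the low-flow control pools numbered 1, 4 and 5 and 543, 610 and 750 in the EC-KO pools. The control pools spread widely and their lowest lay below the whole EC-KO group (log2 fold change -0.75, SE 0.35, edgeR adjusted p = 0.692). Hsp90b1 measured 366, 879 and 937 against 308, 486 and 562 (-0.69, SE 0.35, edgeR adjusted p = 0.692). With the pool numbers as a block its value was -0.62 (SE 0.18, edgeR adjusted p = 0.444). Pdia4 measured 141, 212 and 237 against 141, 113 and 148 (-0.56, SE 0.22, edgeR adjusted p = 0.692). Herpud1 was the only member whose groups did not overlap, at 111, 75.5 and 91.1 FPKM in controls and 130, 142 and 118 in EC-KO pools (0.49, SE 0.18, edgeR adjusted p = 0.692), where 7.84% of 13352 genes did not overlap.

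By edgeR 0 of 10 members passed between EC-KO and control low-flow arteries, as did 0.0% of genes, and 2 had an unadjusted p under 0.05, as did 880 of 13352 genes. DESeq2 called 0. Without the control pool numbered 1 the count was 5, where 11.1% of genes passed. With both low-flow pools numbered 1 left out it was 0, where 2.84% of genes passed, with Hspa5 at -0.98 (edgeR adjusted p = 0.0614), Hsp90b1 at -0.79 (adjusted p = 0.05) and Herpud1 at 0.65 (adjusted p = 0.0793). In the high-flow arteries 0 members passed by edgeR, where 0.00749% of genes did, 0 were under 0.05 before adjustment, and DESeq2 called 0. There 7 of 10 members lay lower in both EC-KO pools than in both controls, which 17.7% of genes did, with Hspa5 at 317 and 388 against 464 and 506 and Pdia6 at 189 and 180 against 270 and 254.

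Between low-flow and high-flow arteries at 7 d, 7 members had positive and 3 negative fitted log2 fold changes in each genotype, but 0 passed by edgeR. With the pool numbers that the columns share as a block, numbers which differ from the replicate numbers of the labels, 6 passed in controls (Hspa5, Hsp90b1, Pdia4, Pdia6, Atf4 and Dnajb9), where 22.0% of all genes did, and 3 in EC-KO arteries (Hspa5, Pdia6 and Ddit3), where 9.86% did. In the controls Hspa5 was 1.14 higher under low flow on the log2 scale (SE 0.40, edgeR adjusted p = 0.119), and Dnajb9, at 17.5, 9.70 and 13.8 FPKM against 31.9 and 36.1, had a log2 fold change of -1.32 (SE 0.31, edgeR adjusted p = 0.0524). Of 10 members 0 passed, where 2.4% of genes did, 5 were under 0.05 before adjustment, as were 3332 genes, and DESeq2 called 4 (Hspa5, Pdia4, Pdia6 and Dnajb9), and 15.9% of genes. The count was 8 without the low-flow control library numbered 1 alone, where 29.4% of genes passed. Without both libraries of that number 8 members passed too, where 29.2% of genes did, with Hspa5 at 1.46 (edgeR adjusted p = 0.0033), Pdia6 at 1.09, Pdia4 at 1.04, Hsp90b1 at 1.00 and Atf4 at 0.84 higher and Dnajb9 at -1.54, Ddit3 at -1.16 and Herpud1 at -0.70 lower. Calr (edgeR adjusted p = 0.0673) and Xbp1 (adjusted p = 0.181) did not pass.

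In the EC-KO arteries 0 members passed between low and high flow, where 1.09% of genes did, 4 were under 0.05 before adjustment, as were 2099 genes, and DESeq2 called Pdia6 and Ddit3, and 7.2% of genes. Ddit3 measured 11.5, 10.2 and 9.02 FPKM under low flow and 32.0 and 23.9 under high flow, groups that did not overlap (log2 fold change -1.45, SE 0.41, edgeR adjusted p = 0.135). Without the libraries numbered 1, 4 members passed, where 8.36% of genes did: Pdia6 (1.04), Hspa5 (0.95), Hsp90b1 (0.69) and Ddit3 (-1.54). The difference between the flow responses of the genotypes was tested as an interaction, and 0 members passed by edgeR and by DESeq2, 0 had an unadjusted p under 0.05, and 0.0% of all genes passed. It was -0.29 for Hspa5 (SE 0.55) and 0.92 for Dnajb9 (SE 0.44), which had the largest. None of the 6 related lists held a gene that passed between EC-KO and control low-flow arteries, with list medians from -0.40 to 0.02, where the median of all genes was -0.04.

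**Figure D4:**
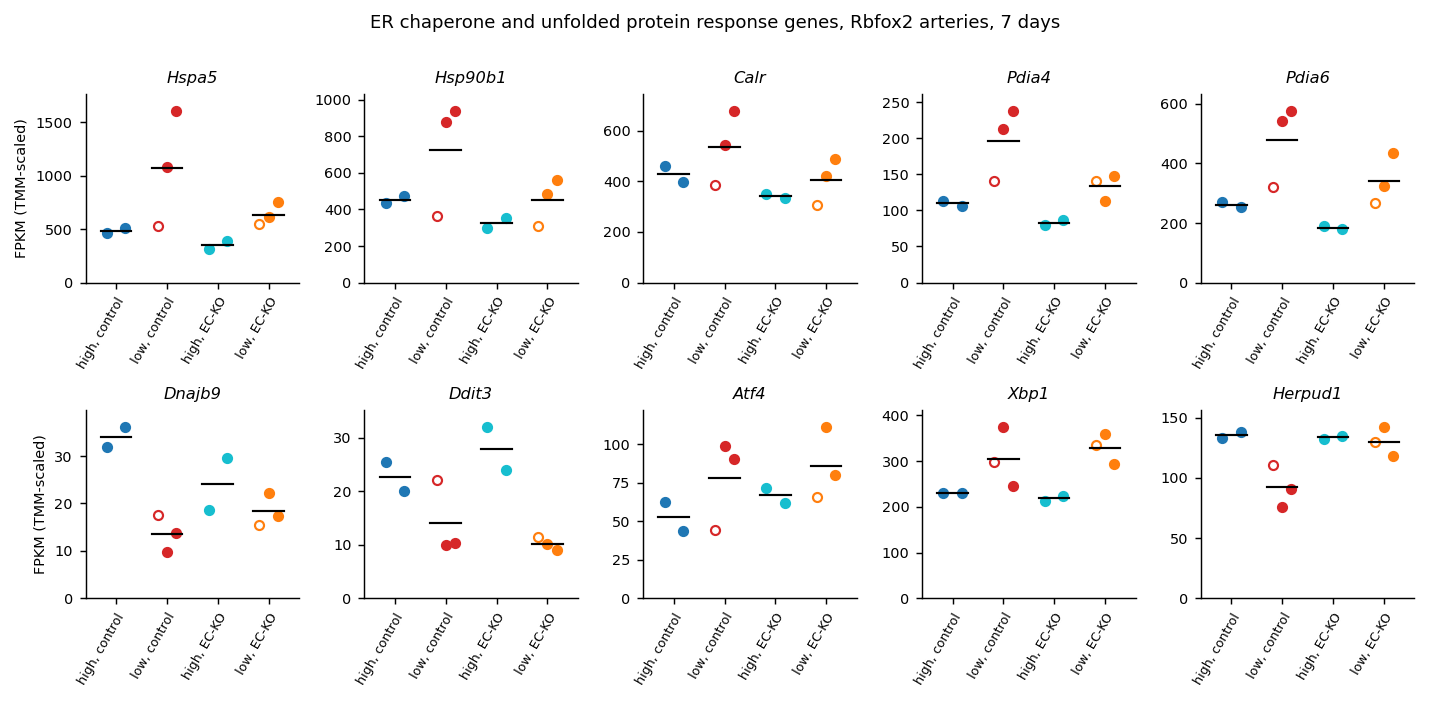
Level of each gene (FPKM, TMM-scaled, linear axis from 0) in high-flow and low-flow carotid intima of Rbfox2 control and EC-KO mice at 7 d, with 1 point per pool, a line at the mean and hollow points for the low-flow pools numbered 1. The hollow control point is the lowest of its group for Hspa5 (529), Hsp90b1 (366) and Pdia6 (321).

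The dividing cell markers at 7 d summed to 33.8, 421 and 488 FPKM in the low-flow control pools numbered 1, 4 and 5, and to 44.0 to 148 in the EC-KO pools. The macrophage sums were 1400, 301 and 372 FPKM in those control pools and 892 to 1660 in EC-KO pools. Fibroblast markers were at 131 to 418 FPKM in the low-flow control pools and 472 to 1660 in the EC-KO pools, which did not overlap, with 0 of 6 called. Between low and high flow in the controls, endothelial markers were at 1950 to 3160 against 4450 to 4620 and smooth muscle markers at 726 to 1030 against 153 to 202. Macrophage markers were at 301 to 1400 against 47.1 to 122 and dividing cell markers at 33.8 to 488 against 8.52 to 10.1. Of these, 1 of 7 smooth muscle, 1 of 12 macrophage and 1 of 6 dividing cell markers were called higher. Of 11 endothelial markers 1 was called higher and 1 lower. The part of these cell types in the members' levels was not tested.

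The cell line tested whether the blood components act on endothelial cells directly. Its 11 endothelial markers summed to 116 FPKM in the untreated culture, against 1980 in primary control cells. There was 1 library per culture, so these differences have no replicate check and no test. With 10% plasma, 6 members were higher and 4 lower than in the untreated culture, with a median log2 ratio of 0.37 and 0 past 2-fold, where 6.11% of genes were. With platelets and macrophages the split was also 6 and 4, with a median of 0.56 and 0 past 2-fold, where 5.02% were. With all of them 7 were higher and 3 lower, with a median of 0.67 and 1 past 2-fold, where 14.0% were.

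Hspa5 measured 420 FPKM in the untreated culture, 610 after plasma, 654 after both cell types and 826 after all of them, 1.45, 1.56 and 1.96 times the untreated level. Calr, the gene past 2-fold, measured 262, 337, 375 and 578 FPKM in the same order. Ddit3 measured 69.3, 68.1, 40.4 and 34.6 FPKM and Dnajb9 22.6, 13.6, 13.0 and 14.2. Hspa5 and Calr were thus higher and Dnajb9 lower in every treated culture. Ddit3 was lower with the added cells, while after plasma its ratio was 0.983, and 1.04 with the deposited RPKM. Atf4 was at 116, 97.9, 112 and 130, on both sides of the untreated level, while Xbp1 was at 63.9, 103, 97.3 and 119 and Herpud1 at 94.8, 90.7, 84.4 and 60.4. The summed macrophage markers were 16.4, 44.9, 392 and 270 FPKM in these cultures, so RNA of added cells was present, and its part in the ratios was not tested.

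**Figure D5:**
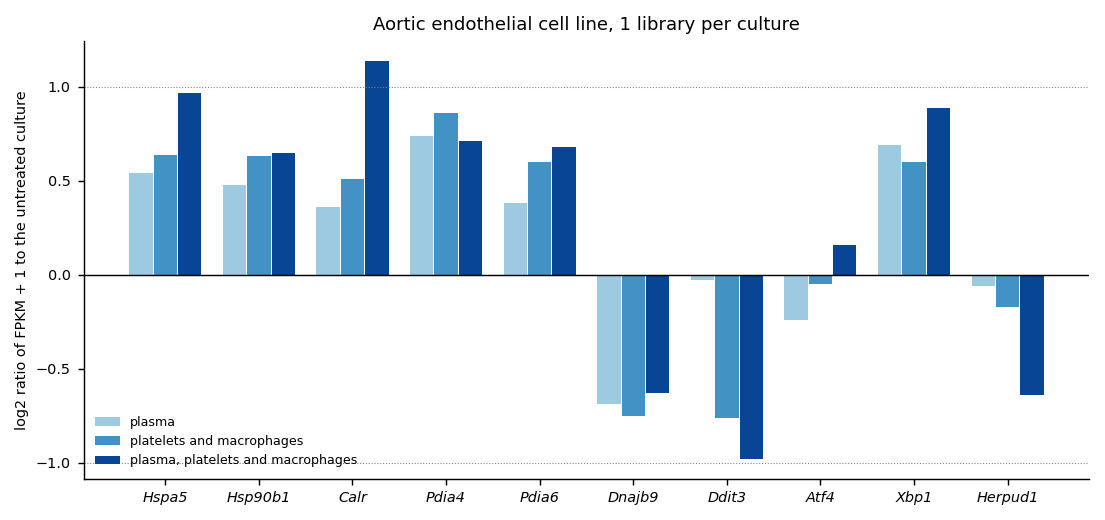
Log2 ratio of FPKM + 1 to the untreated culture (y axis) of each gene in the aortic endothelial cell line after plasma, platelets and macrophages, or all of them, 1 library per culture, with dotted lines at 2-fold. Hspa5, Hsp90b1, Calr, Pdia4, Pdia6 and Xbp1 lie above 0 in all 3 cultures, Dnajb9 and Herpud1 below, Ddit3 is at -0.03 after plasma and lower in the others, and Calr passes 2-fold with all additions (1.14).

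In the primary aortic endothelial cells, Rbfox2 was at 9.33 FPKM in the control culture and 0.675 in the EC-KO culture. Of the members 4 were higher and 6 lower in the EC-KO culture, with a median log2 ratio of -0.07 and 0 past 2-fold, where 3.31% of genes were. Hspa5 measured 816 FPKM in the control and 729 in the EC-KO culture, and Calr 656 and 602. Ddit3 had the largest ratio, at 10.2 and 14.4 FPKM (log2 ratio 0.46). The summed macrophage markers were 345 FPKM in the control culture and 2.04 in the EC-KO culture, and the smooth muscle markers were 3480 and 2770, so these sorted cells held transcripts of other lists after culture. Their part in the ratios was not tested.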

How the data were processed

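RNA of 35 artery and 7 culture libraries was analysed from a table of 21675 entries, of which 1 names no gene. The authors aligned reads to mm9 and the table was deposited with RSEM expected counts and RPKM per gene and library. The processing notes name STAR 2.5.1b and RSEM 1.2.15, and for the 100 bp libraries the sources used here name more than 1 aligner. The deposited expected counts were rounded to whole counts (5.2% to 19.32% of values were not whole). The effective gene lengths, a further deposited column, gave FPKM, TMM-scaled within each set of libraries, while cultures were scaled by total counts. The deposited RPKM served as an alternative for cultures. Of 204 per-library columns 155 were not used, among them repeat runs and libraries that the labels could not be matched to.

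Each comparison was fitted with edgeR 4.0.16 in R 4.3.3 (filterByExpr, TMM, quasi-likelihood test), and p-values were adjusted by Benjamini and Hochberg over all genes tested. The 48 hr untreated comparisons used the groups compared, and the 7 depletion groups and the 4 groups at 7 d were each fitted together. The fits were tested on simulated data. DESeq2 1.42.0, RLE or total count scaling, no filter and left-out libraries were alternatives. Log2 ratios of cultures used FPKM + 1. Likeness was ranked over genes with a mean of at least 5 FPKM over the groups. The columns of the untreated pools name a group and not a sample. The study's methods describe the pools of a group as biological replicates, and p-values measure the spread between these pools. Members and gene lists were chosen with earlier results of these data known. Named from each list were the 2 genes with the largest fold change in each direction among those that passed and whose groups did not overlap, and the 3 ER sensors.

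Low-flow pools of control and EC-KO mice with the same number correlated in their deviations from the group means (r = 0.489, 0.17 and 0.272), so the numbers were taken as pairs there. Between EC-KO and control low-flow arteries, the fit with that block called 0 members, as did the main fit.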

Additional observations from a re-analysis of the deposited data

How the results depend on the processing

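Total count scaling, the fit without low-flow pools a and b and likeness within sets were chosen after seeing the data. In low against high flow at 48 hr, total count scaling gave 6 called members and the fit without pools a and b gave 6, in place of 10. Against sham these gave 5 and 1 in place of 9. RLE scaling and no low-count filter each gave 9 in place of 10, without Herpud1 (edgeR adjusted p = 0.0623 and 0.09). For the 7 d controls, low against high flow gave 0, but 4 with DESeq2, 1 without the low-count filter and 8 without the libraries numbered 1. For the EC-KO arteries it gave 0, but 2 with DESeq2, 1 with only the groups compared and 4 without the libraries numbered 1. Calls past 2-fold in the culture with all additions were 2 in place of 1 with the deposited RPKM (Calr and Ddit3) and with TMM over the cultures (Calr and Hspa5). Atf6 had a log2 fold change of -0.19 with total counts in place of 0.42. The cause of these differences was not tested.

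With the replicate block, low against high flow at 7 d gave 6 called members in controls and 3 in EC-KO arteries in place of 0 and 0, from 2 shared numbers each. These numbers come from the column names and not from the labels, whose replicate numbers differ, so each column gave a group but not a sample. The block gave 6, 4 and 5 for IgG flow, PBS liposome flow and anti-GPIba in place of 6, 3 and 4, and changed no other count. Same-numbered depletion pools correlated at -0.155 to 0.443 in their deviations, so these numbers were not read as pairs. The untreated columns carry no numbers.

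With each library left out in turn, the count of called members ranged from 8 to 10 for low against high flow, 3 to 9 against sham, 1 to 5 with IgG, 0 to 3 with PBS liposomes, 0 to 0 with anti-GPIba, 0 to 5 for EC-KO against control low flow and 0 to 8 for flow in the 7 d controls. Of 118 member values that did not pass, 31 changed sign under 1 or more alternatives, and 0 of them passed with the changed sign. Both sequencing runs of the untreated pools summed was not run, since the repeat columns could not be matched. The depth was lowest for Ddit3, which rested on 11 to 68 counts in untreated low-flow pools.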

Other observations

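A single 100 bp library each of low-flow arteries with PBS and with clodronate liposomes, left out of the comparisons, held Hspa5 at 887 and 572 FPKM, Hsp90b1 at 477 and 317, Calr at 375 and 244, Pdia4 at 154 and 108 and Pdia6 at 590 and 410. Atf4 was at 119 and 101 and Xbp1 at 65.1 and 39.4 in the same order. Dnajb9 was at 22.8 and 25, Ddit3 at 18.7 and 28.7 and Herpud1 at 74.5 and 116. These levels are scaled by total counts, with 1 library each and no test. The eGFP+ primary culture, also of 100 bp reads, held Hspa5 at 743 FPKM, Calr at 500, Pdia6 at 553, Atf4 at 123 and Xbp1 at 33.3.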
